A study of Rattus norvegicus with 24 samples.

Results

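The genes described here encode the pore-forming and accessory subunits of potassium, sodium, calcium and pacemaker channels, together with chloride channels and transporters. They were taken by name: every gene of the array whose symbol begins with Kcn, Scn and a digit, Cacn, Hcn and a digit, or Clcn, with Cacna1g and 1 other calcium channel gene set aside. This gave 126 genes of the 21853 named on the array, read by 129 probes of 50 bases. Of the 126, 54 were detected, at a detection p under 0.05, in 6 arrays or more and were tested, 17 were detected on 1 to 5 arrays, and 55 were detected on no array. The tested set of all genes numbered 10391. The rule matched symbols and not signal, but it was set with earlier results of these data known. The 54 that passed are the ones bright enough to measure, not a sample of all 126.

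The tissue was left ventricle of male Wistar rats of 300 to 350 g, quick frozen, with 1 bead array per rat and 6 rats per group. The 4 groups were ligated rats on a high saturated fat chow, ligated rats on normal chow, sham rats on the same fat chow, and sham rats on normal chow. Ligation closed the left main coronary artery to bring on heart failure, and feeding began straight after surgery, with 60% of the calories of the fat chow coming from fat (palmitic 25%, stearic 33% and oleic acid 33%). The rats lived under a reversed light cycle, and procedures fell 3 to 6 hours into the dark phase. The feeding time, and where in the ventricle relative to the infarct the tissue was cut, are not given in the sources used here.

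Cardiac myocytes fire when sodium channels open, hold a plateau while calcium enters, and return to rest as several potassium currents switch on in turn. Rat ventricle repolarizes mainly through a fast transient outward potassium current, carried by Kcnd pores with the Kcnip2 subunit, while inward rectifiers and two-pore channels hold the resting potential. Small accessory subunits (Kcne, Scn beta, Cacnb and Cacna2d genes) change how many pores reach the membrane and how quickly they open and close. Loss of potassium current is a known feature of the failing heart, where it lengthens the action potential.

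Ligation, averaged over both diets, changed 5 of the 54 channel genes at a Benjamini-Hochberg adjusted p under 0.05. Scn3b, Kcne1 and Kcnd1 rose, and Kcnk2 and Scn4b fell. The 5 make up 9.26% of the tested channel genes, beside 3.14% called among all 10391 genes. Because the set was chosen with earlier results of these data known, these shares are set side by side and are not a test. These calls held with each rat left out in turn and with batch as a block, and ended when arrays were scaled to the median of all probes. The remaining 49 included Kcnd2, Kcnd3, Kcnip2, Kcnq1, Kcnh2, Kcnj11 and Kcnj12, which carry or shape currents of the ventricle, and none of them was called. Of these, Kcnd2 differed by -0.40 over both diets (adjusted p = 0.164) and by -0.60 on fat (adjusted p = 0.216). It was called over both diets with array weights. No channel gene was called for diet or for the interaction of surgery and diet. In ventricle as a whole, fewer cells of a type and less RNA per cell cannot be told apart.

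RefSeq promoter windows, 250 bases before to 50 bases after a gene's start, were at hand for 35 of the 54 genes on the GRCr8 build, and for 3 of the 5 that differed. They are shown because 2 of the genes, Kcnk2 and Scn4b, fell together after ligation and Kcne1 rose. Capitals mark each CG pair, the density of which separates broad, constantly used promoters from narrower ones. Kcnk2 lies at chr13:103438593-103438892 on the minus strand, Scn4b at chr8:54343623-54343922 on the plus strand, and Kcne1 at chr11:45076984-45077283 on the minus strand.
Kcnk2: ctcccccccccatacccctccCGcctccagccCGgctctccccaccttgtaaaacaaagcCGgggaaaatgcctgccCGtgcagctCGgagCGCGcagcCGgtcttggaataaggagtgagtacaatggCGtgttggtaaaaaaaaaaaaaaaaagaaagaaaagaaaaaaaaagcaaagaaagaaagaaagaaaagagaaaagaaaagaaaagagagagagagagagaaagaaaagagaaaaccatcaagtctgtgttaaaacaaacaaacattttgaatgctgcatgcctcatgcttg
Scn4b: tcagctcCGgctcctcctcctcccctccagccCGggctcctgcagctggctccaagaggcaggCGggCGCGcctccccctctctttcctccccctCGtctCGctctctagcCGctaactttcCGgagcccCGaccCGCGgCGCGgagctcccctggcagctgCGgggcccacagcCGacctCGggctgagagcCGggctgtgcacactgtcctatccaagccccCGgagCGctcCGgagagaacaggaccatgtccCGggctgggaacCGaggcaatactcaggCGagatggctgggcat
Kcne1: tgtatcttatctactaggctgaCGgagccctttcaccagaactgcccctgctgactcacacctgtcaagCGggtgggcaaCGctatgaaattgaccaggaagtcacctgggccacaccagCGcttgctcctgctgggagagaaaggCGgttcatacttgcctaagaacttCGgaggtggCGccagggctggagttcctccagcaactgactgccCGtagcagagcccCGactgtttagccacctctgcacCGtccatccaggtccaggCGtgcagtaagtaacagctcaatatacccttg
The Scn4b window held 24 CG pairs and was 70% G and C, the Kcne1 window 11 and 56.7%, and the Kcnk2 window 9 and 44.3%, against medians of 15 CG pairs and 61.7% over the 35 channel genes and 7 and 51.7% over all 33469 promoters of the table. Kcnk2 and Scn4b thus moved in the same direction from windows of very different base makeup. A search of both strands for 6 short motifs followed. TATAAA, the TATA box, was in 2 of the 35 channel gene windows (5.71%, against 14.2% of all promoters), and GGGCGG, the GC box that Sp factors bind, was in 17 (48.6%, against 33.1%). CATTCC, the M-CAT element of muscle genes, was in 6 (17.1%, against 14.2%), and AGGTCA, the half-site of nuclear receptors, in 2 (5.71%, against 16.2%). CACGTG, the E-box that clock and Myc factors bind, was in 0 (against 6.42%), and AGATAA, which zinc-finger factors of the heart bind, in 3 (8.57%, against 11.6%). Among the 3 printed windows the sole match was AGATAA in Kcne1, on the opposite strand from base -244 to base -239 relative to the start.

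Facts of the whole array set bear on these values. Arrays detected 8884 to 10475 of 22517 probes, and 2 arrays of the same group correlated at 0.969 to 0.992. The signal of undetected probes placed 12 arrays in a high-background set (143.6 to 160.7) and 12 in a low-background set (81.62 to 92.95); the files give no chip or date, and this batch rests on signal alone. The high set held 5 ligated fat, 2 ligated chow, 3 sham fat and 2 sham chow rats, so the ligated fat group is nearly all high-background. Of 10 cardiomyocyte markers, all but Myl2 passed. The summed log2 level of these 9 lay within 18.3 to 18.46 in every rat, and 0 was called after ligation. They were read as markers of heart muscle, and ventricle was not told from atrium by them. Nppa, a natriuretic peptide gene switched on by wall stress, spanned 12.49 to 15.27 in ligated fat and 12.14 to 14.89 in ligated chow rats, against 10.88 to 11.67 in sham fat and 10.59 to 12.78 in sham chow rats. All levels below are normalized signals on the log2 scale, all differences are log2 differences from limma with their standard error (SE), and levels of different genes cannot be set against each other because each rests on its own probe.

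Kcnk2 encodes a two-pore potassium channel that opens with membrane stretch, warmth and polyunsaturated fatty acids, and it carries a background current in the ventricle. Its log2 signal ran from 9.61 over a median of 9.73 to 9.97 in ligated rats on saturated fat, against 10.39, 10.53 and 10.74 in sham rats on saturated fat. On chow it ran from 9.34 over 9.87 to 10.18 in ligated rats, against 9.85, 10.22 and 10.42 in sham rats. On fat the groups do not overlap, and on chow 3 of the 6 ligated rats lie below every sham rat. The difference averaged over both diets was -0.60 (SE 0.09, adjusted p = 0.000442), a fold of 0.66 with a 95% interval of -0.79 to -0.41 on the log2 scale. On fat alone it was -0.80 (SE 0.13, adjusted p = 0.00295), and on chow alone -0.40 (SE 0.13, adjusted p = 0.224).

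None of the 4 two-pore genes beside Kcnk2 that passed was called after ligation. Kcnk3, an acid-sensitive background channel, differed by -0.22 (SE 0.13, adjusted p = 0.428) over both diets, with -0.06 on fat and -0.39 on chow. Kcnk1 was 0.09, Kcnk10 -0.06 and Kcnk15 -0.09 over both diets, each with an SE of 0.11 to 0.18. Kcnk9, Kcnk12 and Kcnk13 were detected on no array. Kcnk1 was detected in 4 of 6 ligated fat, 2 of 6 ligated chow, 2 of 6 sham fat and 0 of 6 sham chow rats, so its group values sit at the detection limit.

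Scn4b encodes a beta subunit of the cardiac sodium channel, a single-pass membrane protein that slows inactivation and anchors the pore. It ran from 10.23 over 10.59 to 11.25 in ligated rats on fat, against 11.23, 11.36 and 11.98 in sham rats on fat. On chow it ran from 10.48 over 10.98 to 11.35 in ligated rats, against 10.8, 11.24 and 11.57 in sham rats. On fat 5 of 6 ligated rats lie below every sham rat and the sixth overlaps by a narrow margin, while on chow the groups overlap. The difference over both diets was -0.57 (SE 0.13, adjusted p = 0.0119), a fold of 0.67. It was -0.85 (SE 0.18, adjusted p = 0.0219) on fat and -0.29 (SE 0.18, adjusted p = 0.624) on chow. The call on fat ended when sham fat rat 17 or 11, or ligated fat rat 25 or 37, was left out, with adjusted p of 0.059, 0.064, 0.0517 and 0.0696 in that order, the difference then lying between -0.80 and -0.76.

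Scn3b, another sodium channel beta subunit, moved the opposite way. It ran from 7.21 over 8.61 to 9.86 in ligated rats on fat, against 7.1, 7.84 and 8.56 in sham rats on fat. On chow it ran from 8.39 over 8.95 to 9.45 in ligated rats, against 7.19, 7.7 and 8.32 in sham rats. On chow every ligated rat lies above every sham rat, while on fat 3 of 6 do and rat 18 is near the bottom of the sham range. The difference over both diets was 1.07 (SE 0.22, adjusted p = 0.00637), a fold of 2.09 with a 95% interval of 0.61 to 1.52 on the log2 scale. It was 0.83 (SE 0.31, adjusted p = 0.259) on fat and 1.30 (SE 0.31, adjusted p = 0.0627) on chow. The value on chow passed the threshold without sham chow rat 15 (1.42, adjusted p = 0.045) or without ligated chow rat 21 (1.42, adjusted p = 0.0299).

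No other sodium channel gene was called. Scn7a, a sodium channel that senses extracellular sodium and is also present in Schwann cells, differed by -0.22 (SE 0.10, adjusted p = 0.289). Scn1a differed by 0.11 (SE 0.15, adjusted p = 0.802). Scn2a, Scn8a, Scn9a and Scn11a were detected on no array, and Scn2b, Scn4a and Scn10a on 1 to 4. Scn3b and Scn4b both lie on rat chromosome 8.

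Kcne1 encodes a small subunit that slows the opening of the delayed rectifier pore Kcnq1. It ran from 6.49 over 7.57 to 8.3 in ligated rats on fat, against 5.62, 5.92 and 7.57 in sham rats on fat. On chow it ran from 6.31 over 7.85 to 9.25 in ligated rats, against 5.68, 6.58 and 7.41 in sham rats. The groups overlap on both diets, with 3 of 6 ligated fat rats and 4 of 6 ligated chow rats above every sham rat of their diet. The difference over both diets was 1.18 (SE 0.28, adjusted p = 0.018), a fold of 2.26 with a 95% interval of 0.60 to 1.76 on the log2 scale. It was 1.25 (SE 0.40, adjusted p = 0.163) on fat and 1.11 (SE 0.40, adjusted p = 0.269) on chow. Kcne1 was detected in 6 of 6 rats of each ligated group, but in 3 of 6 sham fat and 5 of 6 sham chow rats, so the sham level lies near the detection limit. The difference over both diets was 0.93 with an offset of 50 and 0.70 in the authors' normalized intensities, still called in each. Kcnq1, the pore it joins, differed by 0.00 (SE 0.10, adjusted p = 0.998), with a 95% interval of -0.21 to 0.21.

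Kcnd1 encodes a pore of the transient outward family. It ran from 6.01 over 6.18 to 6.65 in ligated rats on fat, against 5.65, 5.92 and 6.23 in sham rats on fat. On chow it ran from 6.4 over 6.47 to 7.02 in ligated rats, against 5.96, 6.2 and 6.31 in sham rats. On chow every ligated rat lies above every sham rat, and on fat 2 of 6 do. The difference over both diets was 0.36 (SE 0.09, adjusted p = 0.018), a fold of 1.28, with 0.34 (SE 0.12, adjusted p = 0.227) on fat and 0.38 (SE 0.12, adjusted p = 0.205) on chow. Like Kcne1 it was detected in 3 of 6 sham fat and 5 of 6 sham chow rats, and its difference over both diets was 0.20, still called, in the authors' normalized intensities. Non-overlap on chow, which holds for Kcnd1 and Scn3b, was seen in 2 of 54 channel genes (3.7%) and in 0.991% of all genes; non-overlap on fat, which holds for Kcnk2, was seen in 1 of 54 (1.85%) and in 1.44% of all genes. Pooled over diets, 0 channel genes and 0.0577% of all genes had every ligated rat on one side of every sham rat.

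**Figure D1:**
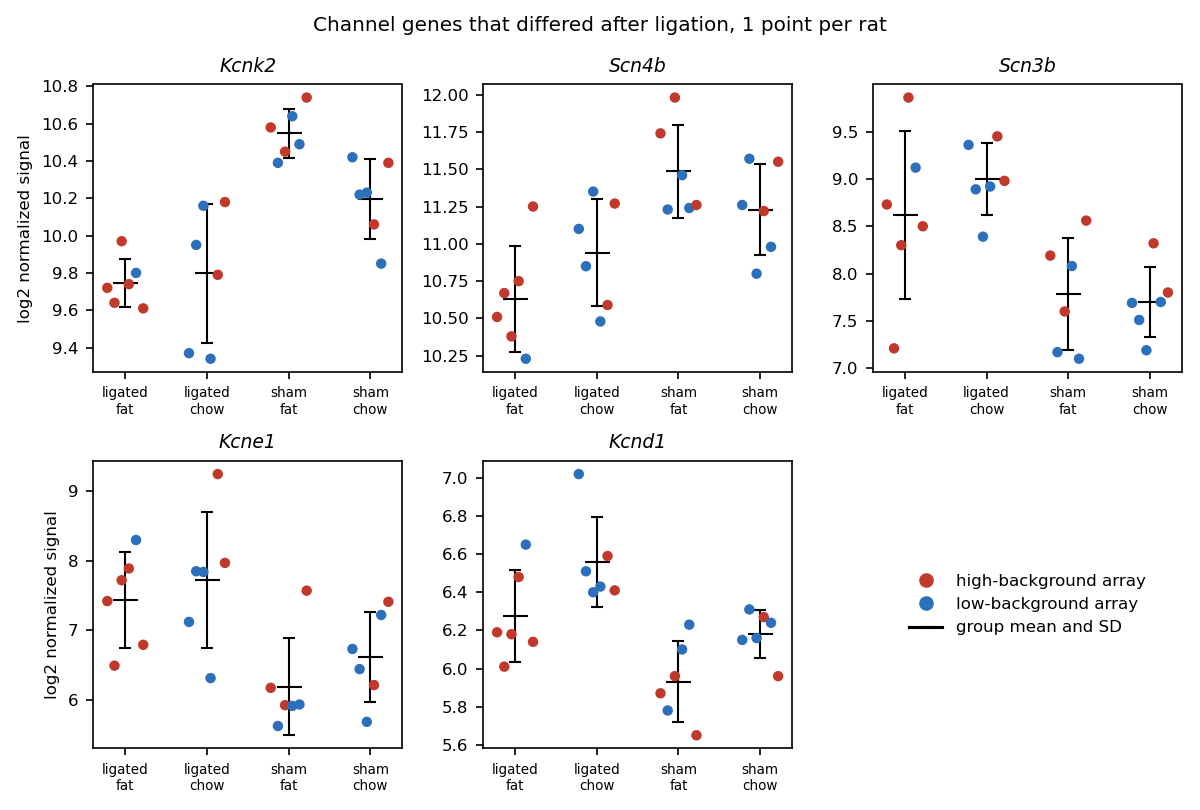
Log2 normalized signal (vertical axis, own scale per panel) of the 5 channel genes called after ligation, 1 point per rat in the 4 groups (horizontal axis), coloured by the background set of the array, with group mean and SD (n = 6 each). Kcnk2 in ligated fat rats (9.61 to 9.97) lies wholly below sham fat rats (10.39 to 10.74), and Scn3b in ligated chow rats (8.39 to 9.45) wholly above sham chow rats (7.19 to 8.32).

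These 5 results were set against the array batch and single rats. With batch as a block, all 5 stayed called over both diets: Kcnk2 -0.62 (adjusted p = 0.000478), Scn4b -0.61 (adjusted p = 0.00569), Kcnd1 0.39 (adjusted p = 0.0059), Scn3b 1.01 (adjusted p = 0.00931) and Kcne1 1.10 (adjusted p = 0.0265). Within the high-background arrays the differences were -0.55 for Kcnk2, -0.70 for Scn4b, 0.38 for Kcnd1, 0.78 for Scn3b and 1.25 for Kcne1. Within the low-background arrays they were -0.59, -0.64, 0.49, 1.52 and 1.62 for the same genes in the same order. Every sign held in both sets of 12 arrays. Within the high set no adjusted p of the 5 was under 0.05. The low set holds 1 ligated fat rat, rat 37, on which the fat part of each low-set difference rests. Leaving out each of the 24 rats in turn ended none of the 5 calls over both diets. Scaling arrays to the median of all probes in place of quantile normalization ended all 5, with adjusted p of 0.0953 for Kcnk2, 0.253 for Scn4b, 0.142 for Kcnd1, 0.0689 for Scn3b and 0.0774 for Kcne1, at differences of -0.57, -0.57, 0.31, 1.07 and 1.14. That median lies among undetected probes, and scaling to the median of the probes that passed the filter, a setting chosen after seeing the data, kept Kcnk2, Scn4b, Scn3b and Kcne1 and ended Kcnd1 (0.28, adjusted p = 0.25).

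**Figure D2:**
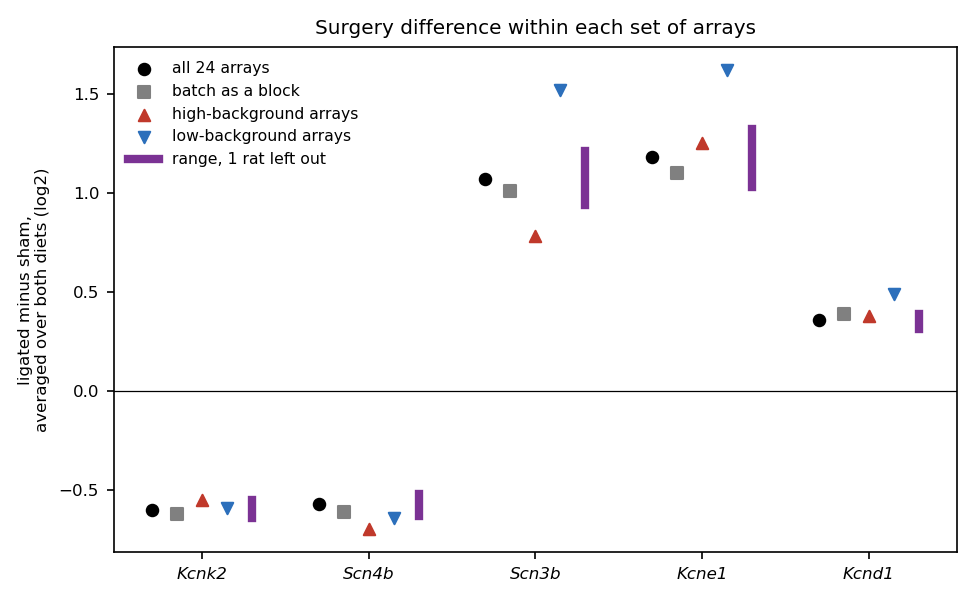
Ligated minus sham difference averaged over both diets (log2, vertical axis) for the 5 called channel genes (horizontal axis), from all 24 arrays, with batch as a block, within each background set, and as the range with 1 rat left out at a time. Kcnk2 and Scn4b lie below 0 and the other 3 above 0 in every setting drawn. The low-background set holds 1 ligated fat rat.

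Among the genes of the transient outward currents, Kcnd1 was called higher, as given above, and Kcnd2, Kcnd3, Kcnip2 and Kcna4 did not pass the test over both diets, with values on both sides of 0. Kcnd2, a pore of the fast component, ran from 7.99 over 8.98 to 9.85 in ligated rats on fat, against 9.11, 9.65 and 9.79 in sham rats on fat. On fat 5 of 6 ligated rats lie below every sham rat, and rat 18 lies above all of them. Its difference was -0.60 (SE 0.21, adjusted p = 0.216) on fat, -0.20 (SE 0.21, adjusted p = 0.816) on chow and -0.40 (SE 0.15, adjusted p = 0.164) over both. Without ligated fat rat 18 the difference on fat was -0.77 and passed (adjusted p = 0.0376). Kcnd3, the other pore, differed by -0.18 (SE 0.12, adjusted p = 0.507) over both diets, with a 95% interval of -0.42 to 0.06. Kcnip2, the calcium-binding subunit that brings these pores to the membrane, ran from 12.63 over 13.13 to 13.87 in ligated fat rats, against 13.07, 13.18 and 13.37 in sham fat rats. It differed by -0.08 (SE 0.11, adjusted p = 0.799), with a 95% interval of -0.30 to 0.14.

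**Figure D3:**
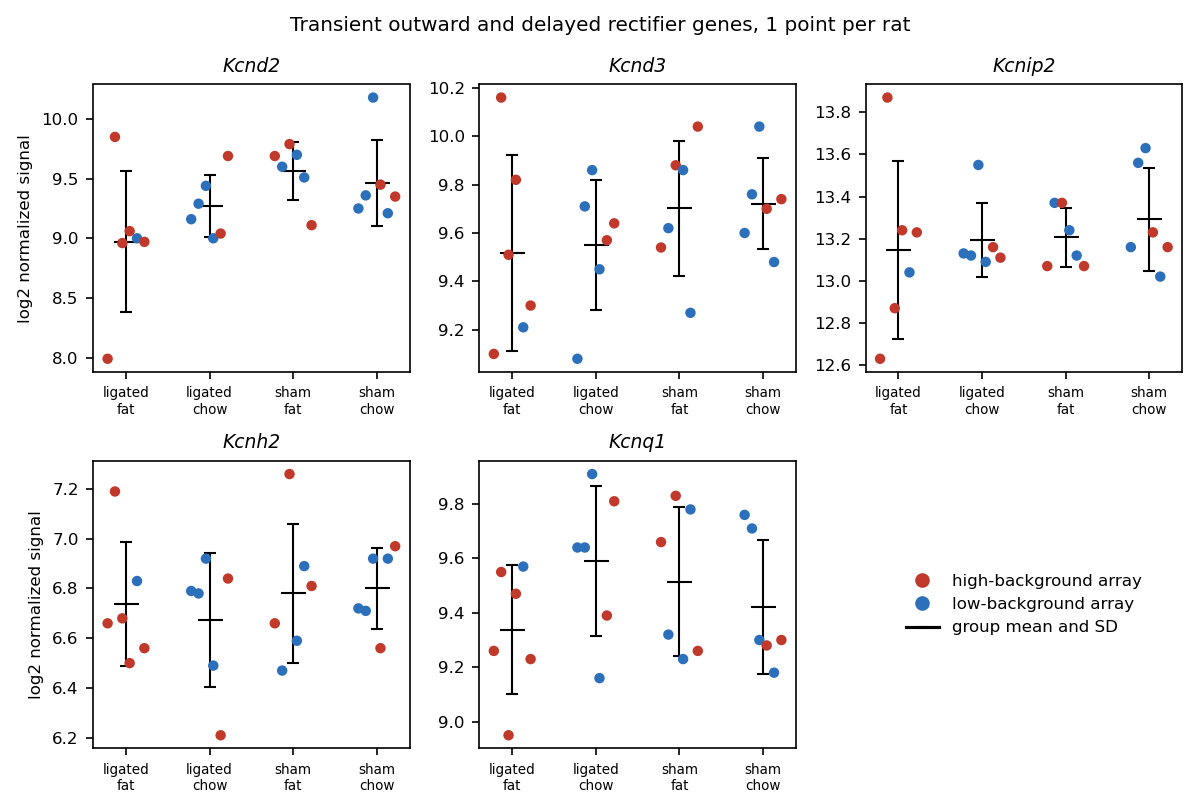
Log2 normalized signal (vertical axis, own scale per panel) of Kcnd2, Kcnd3, Kcnip2, Kcnh2 and Kcnq1, 1 point per rat in the 4 groups (horizontal axis), coloured by background set, with group mean and SD (n = 6 each). None was called; ligated fat rat 18 is the highest of its group for Kcnd2 (9.85), Kcnd3 (10.16), Kcnip2 (13.87) and Kcnh2 (7.19).

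The slow transient outward pore Kcna4 differed by 0.63 on fat (SE 0.26, adjusted p = 0.315), by 0.04 on chow (SE 0.26, adjusted p = 0.98) and by 0.33 over both (SE 0.18, adjusted p = 0.394). It was detected in 6 of 6 ligated fat and 4 of 6 ligated chow rats, against 3 of 6 sham fat and 5 of 6 sham chow rats. Kcna5, the ultrarapid delayed rectifier pore, differed by 0.00 (SE 0.13, adjusted p = 0.999) over both diets, from -0.27 on fat and 0.27 on chow. Kcnh2, the rapid delayed rectifier pore, differed by -0.09 (SE 0.10, adjusted p = 0.757). Kcnc1 and the subunit gene Kcne3 each differed by -0.09, with adjusted p of 0.785 and 0.727. Of the 19 voltage-gated potassium genes and subunits that passed, 7 were higher and 12 lower over both diets, with a median of -0.04, and 25 of the 49 on the array, Kcna2, Kcnab1, Kcnab2 and Kcne2 among them, were detected nowhere.

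The inward rectifiers hold the resting potential and, as ATP-sensitive channels, open when energy runs short. Of the 8 that passed, 4 were higher and 4 lower over both diets, from -0.24 to 0.27, and none was called. Kcnj11, the pore of the ATP-sensitive channel of the myocyte, ran from 9.1 over 9.28 to 10.21 in ligated fat rats, against 9.5, 9.57 and 9.89 in sham fat rats. It differed by -0.24 (SE 0.12, adjusted p = 0.335) over both diets, by -0.23 on fat and by -0.26 on chow. Kcnj5, a subunit of the acetylcholine-gated channel, differed by -0.22 (SE 0.12, adjusted p = 0.41), and Kcnj12, a classical inward rectifier, by -0.19 (SE 0.12, adjusted p = 0.453). Kcnj14 had the largest positive difference of the family at 0.27 (SE 0.11, adjusted p = 0.201). Kcnj8, the ATP-sensitive pore of vessel muscle, differed by -0.04 (SE 0.16), and Kcnj4 by 0.00 (SE 0.11). Kcnj2 and Kcnj3, which encode the main inward rectifier and the partner of Kcnj5, were detected on 2 arrays each and were not tested.

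Of 20 calcium channel genes 5 passed the filter, 14 were detected on no array, and Cacng2 was detected on 1 array. Cacna1h, a T-type pore that the fetal ventricle expresses, ran from 6.52 over 7.21 to 7.58 in ligated rats on fat, against 5.74, 6.49 and 7.2 in sham rats on fat. All 6 ligated fat rats lie above the mean of the sham fat rats, and 4 of them above every one. Its difference was 0.71 (SE 0.23, adjusted p = 0.154) on fat, 0.36 (SE 0.23, adjusted p = 0.615) on chow and 0.54 (SE 0.16, adjusted p = 0.0654) over both. It was detected in 4 of 6 sham fat rats, and the value over both diets passed without sham fat rat 17 (0.61, adjusted p = 0.0247), ligated chow rat 16 (0.59, adjusted p = 0.0455), ligated chow rat 21 (0.57, adjusted p = 0.0494) or ligated fat rat 37 (0.60, adjusted p = 0.0348). It was 0.75 within the high-background arrays (adjusted p = 0.337), 0.18 within the low-background arrays (adjusted p = 0.856) and 0.29 in the authors' normalized intensities (adjusted p = 0.0667). Cacnb2, the main cardiac beta subunit, ran from 7.21 over 7.33 to 7.58 in ligated fat rats, against 7.21, 7.79 and 8.05 in sham fat rats. It differed by -0.38 (SE 0.14, adjusted p = 0.225) on fat and by 0.08 (SE 0.14, adjusted p = 0.907) on chow. Cacna2d1, which carries pores to the surface, differed by 0.10 (SE 0.09, adjusted p = 0.676) over both diets, Cacnb3 by 0.13 (SE 0.09, adjusted p = 0.538) and Cacna2d3 by -0.06 (SE 0.11, adjusted p = 0.887).

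Hcn2 was the sole pacemaker channel gene that passed; Hcn3 and Hcn4 were detected on no array. It differed by 0.09 (SE 0.15, adjusted p = 0.848) over both diets. The 6 calcium-activated potassium genes that passed ranged from -0.15 to 0.20, with 3 higher and none called; Kcnn2 differed by 0.00 (SE 0.11) and Kcnn3 by -0.04 (SE 0.12). Kcnma1, the pore of the large-conductance channel, was detected on no array, although its subunit gene Kcnmb2 was detected on all 24. The 4 chloride channel and transporter genes that passed ranged from -0.03 to 0.24. Clcn2 was at 0.24 (SE 0.15, adjusted p = 0.464), Clcn3 at 0.06 (SE 0.10) and Clcn1 at -0.03 (SE 0.07). Clcn1 was detected on 8 of the 24 arrays and Kcnn2 on 11, so both sit near the detection limit. Over the ventricular channel list, 36 of 53 genes on the array passed, and over both diets 16 of the 36 were higher (against 46.1% of all genes) and 4 were called (against 3.14% of all genes), with a median of -0.03. All 4 are among the 5 called genes already described, and this list too was chosen with earlier results of these data known.

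**Figure D4:**
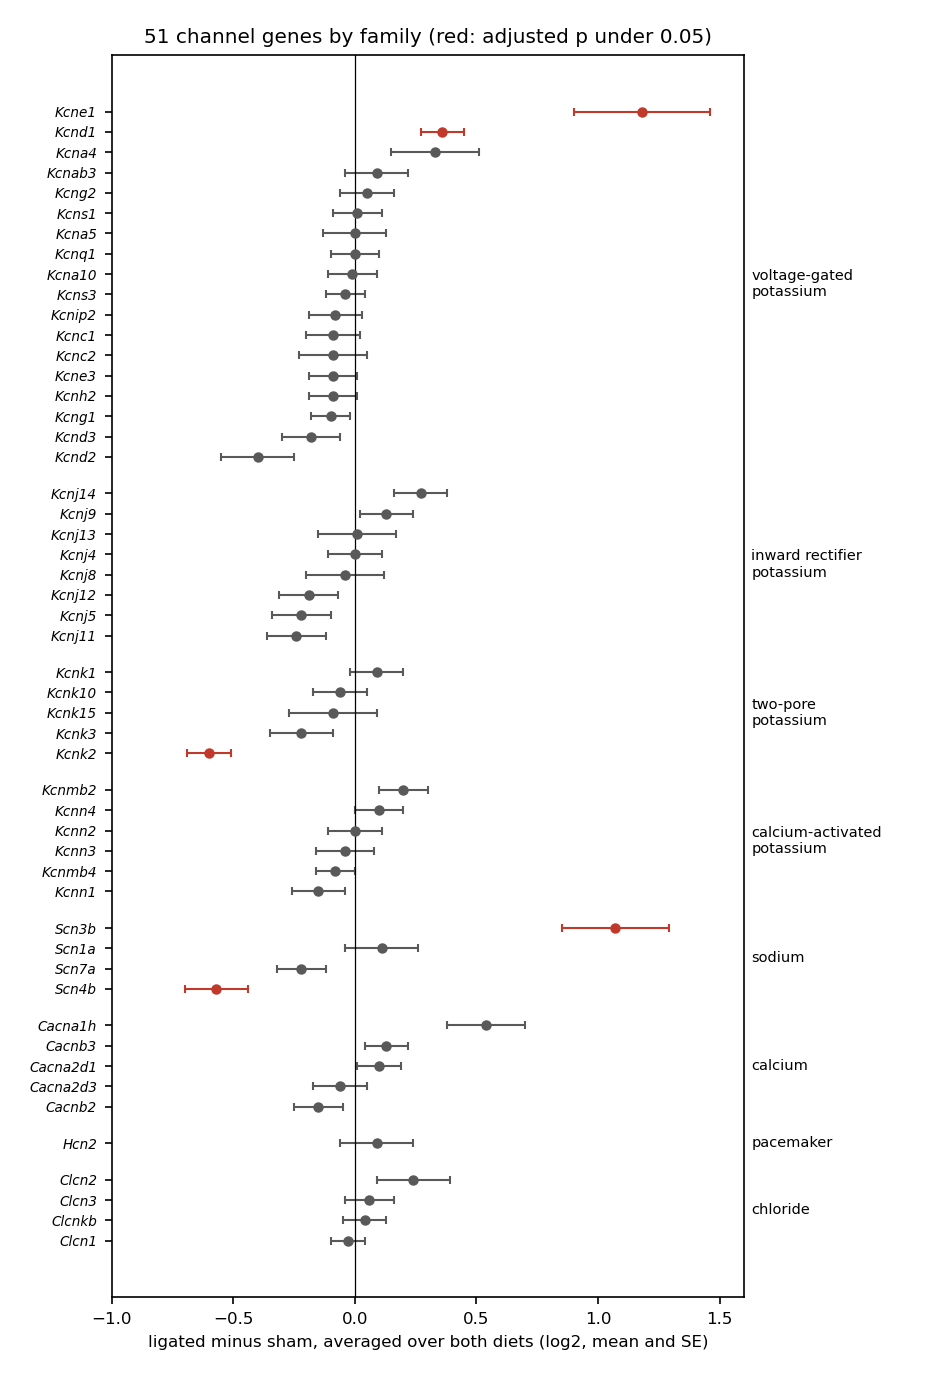
Ligated minus sham difference averaged over both diets (log2, horizontal axis, mean and SE) for 51 of the 54 channel genes that passed, grouped by family down the page and sorted within a family. Red marks the 5 genes with an adjusted p under 0.05; in each family most genes lie close to 0, and 43 of the 51 drawn lie within 0.3 of it.

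Ligation was also read on each diet alone; both readings use different rats, while the value over both diets uses the rats of both. On fat 2 channel genes were called (3.7%, against 0.885% of all genes), Kcnk2 and Scn4b, and 12 had an unadjusted limma p under 0.05 (22.2%, against 11.7% of all genes). On chow 0 were called (against 0.472% of all genes), and 5 had an unadjusted p under 0.05 (9.26%, against 10.4%). Over both diets 10 had an unadjusted p under 0.05 (18.5%, against 15.5%). On fat 20 of the 54 were higher, with a median of -0.071, against 46.5% higher and a median of -0.015 for all genes; on chow 32 were higher, with a median of 0.046, against 49.6% and -0.002. Over both diets 25 were higher. Scaling over the probes that passed gave 14 higher on fat and 19 over both diets, and scaling over all probes 23 on each. The sign was the same on both diets for 34 of the 54 genes, 16 higher and 18 lower, or 63%, against 56.4% of all genes, while 16 (29.6%, against 23.3% of all genes) were lower on fat and higher on chow.

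**Figure D5:**
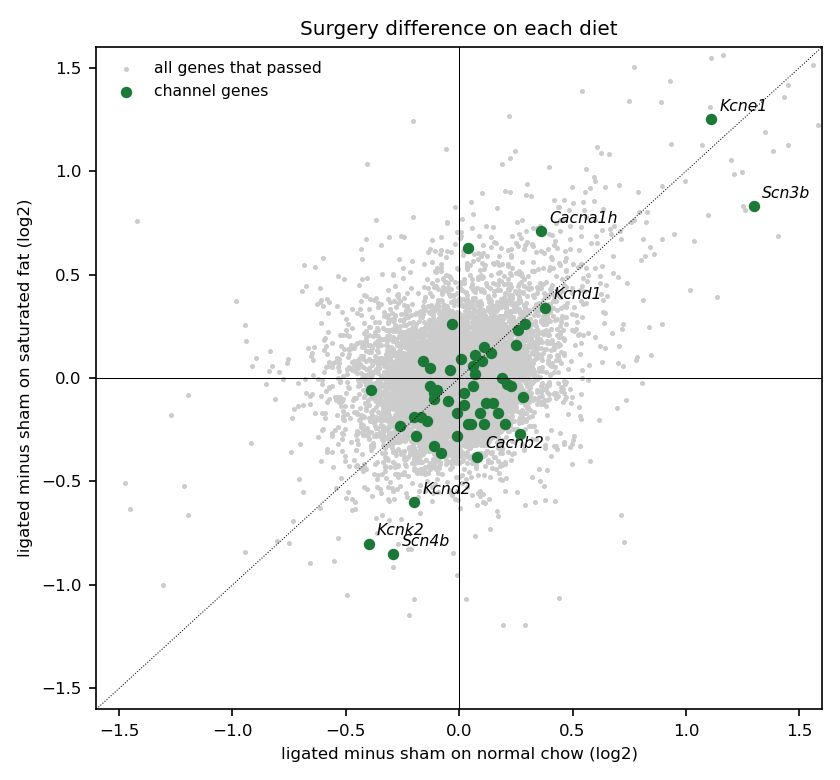
Ligated minus sham difference on saturated fat (vertical axis, log2) against the same difference on normal chow (horizontal axis, log2) for the 54 channel genes in green and all genes that passed in grey; the dotted line marks equal differences, and genes beyond the axes are not drawn. Kcnk2 and Scn4b lie at the lower left, below the line (-0.80 and -0.85 on fat, -0.40 and -0.29 on chow), and Kcne1 and Scn3b at the upper right.

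The interaction asks whether the surgery difference depends on the diet, and it called no channel gene (against 0% of all genes). At an unadjusted limma p under 0.05 it held 5 channel genes, each with the more negative ligation difference on fat (9.26%, against 5.42% of all genes). The difference of differences was -0.56 for Scn4b, -0.55 for Kcna5, -0.46 for Cacnb2, -0.42 for Kcna10 and -0.41 for Kcnk2, with an adjusted p of 0.878 for each. The ligation differences of Kcnk2 and Scn4b were therefore not shown to differ between the diets. Kcna5 and Kcna10, a potassium pore gene related to Kcna5, were detected in 3 and 2 of 6 ligated fat rats.

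The diet comparisons ask what saturated fat does within each surgery. In ligated rats 0 channel genes were called (against 0.00962% of all genes), and 6 had an unadjusted p under 0.05 (11.1%, against 9.64%). On fat Kcna5 differed by -0.49, Kcna10 and Kcnj4 by -0.39 each, Kcnk10 by -0.36, Kcnd1 by -0.28 and Kcnj13 by 0.49, with adjusted p of 0.503 to 0.51. Under quantile normalization 15 of the 54 were higher on fat, with a median of -0.078. That direction turned with the scaling: 33 were higher with arrays scaled to the median of all probes, which moved the median of all genes to 0.157, and 10 were higher with scaling over the probes that passed. A direction over the channel genes as a whole was therefore not read from diet in ligated rats.

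In sham rats 0 channel genes were called (against 0.0192% of all genes), and 4 had an unadjusted p under 0.05, all higher on fat (7.41%, against 5.97%). Kcnk2 was one of them: it ran from 10.39 to 10.74 in sham rats on fat, against 9.85 to 10.42 in sham rats on chow, with 5 of 6 fat rats above every chow rat. Its difference was 0.36 (SE 0.13, adjusted p = 0.649). The other 3 were Kcnj13 at 0.60, Cacnb2 at 0.33 and Clcn1 at 0.21, with adjusted p of 0.649, 0.759 and 0.798 in that order. Clcn1 was detected in 2 of 6 sham fat and 1 of 6 sham chow rats, so its difference lies between mostly undetected values. Kcnj13 was detected in 6 of 6 sham fat and 4 of 6 sham chow rats. This comparison and ligation on fat share the sham fat rats, which are high for Kcnk2 and Cacnb2 in both. Averaged over both surgeries 0 were called (against 0.0577% of all genes), and 6 had an unadjusted p under 0.05 (11.1%, against 9.22%). Kcnj13, an inward rectifier best known from epithelia, was 0.54 higher on fat (SE 0.16, adjusted p = 0.393), and Kcnd1 differed by -0.27 (adjusted p = 0.463). Diet separated the groups without overlap for 0 channel genes, against 0.154% of all genes in ligated and 0.481% in sham rats.

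Channels work beside pumps, exchangers, gap junctions and the regulators of channel genes. Of a list of 54 such genes, 38 passed, and 4 were called, 3 of them higher, after ligation over both diets (against 3.14% of all genes), with a list median of -0.03 and 17 higher. Hopx, a homeodomain cofactor of cardiac growth, rose by 0.65 (adjusted p = 0.00103), Gem, a small GTPase that inhibits calcium channels, by 0.53 (adjusted p = 0.0272), and Irx4, a ventricular transcription factor, by 0.51 (adjusted p = 0.0403). Gja1, the main ventricular gap junction gene, differed by -0.05 (adjusted p = 0.921), and the sodium-calcium exchanger gene Slc8a1 by 0.02 (adjusted p = 0.956). Atp1b1, a beta subunit of the sodium pump, differed by -0.14 (adjusted p = 0.399).

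Some markers of other cells in the ventricle were called higher in ligated rats, and their part in the channel results was not tested. Over both diets 46.1% of all genes were higher and 3.14% were called. Of 10 fibroblast markers that passed, 10 were higher over both diets, with a median of 0.36 and 2 called. Their summed log2 level spanned 15.82 to 16.54 in ligated fat and 15.86 to 16.31 in ligated chow rats, against 15.73 to 15.99 in sham fat and 15.65 to 16.3 in sham chow rats. Of 8 macrophage markers that passed, 8 were higher over both diets, with a median of 0.46 and 3 called. On fat 8 were higher (median 0.64) and 3 called, and on chow 6 were higher (median 0.33) and 0 called, against 0.885% of all genes called on fat and 0.472% on chow. Their summed log2 level spanned 12.09 to 12.75 in ligated fat and 11.77 to 12.75 in ligated chow rats, against 11.48 to 12.03 in sham fat and 11.61 to 12.16 in sham chow rats. Of 12 nerve and Schwann cell markers 4 passed, with a median of 0.20, and Cnp (0.48, adjusted p = 0.000365) and Prph (0.29, adjusted p = 0.0488) were called. Of 6 atrial markers 4 passed, all 4 higher, with a median of 0.57. The sole call was Nppa, which is also the wall stress gene described above. The others were Myl7 at 1.05 (adjusted p = 0.521), Tbx5 at 0.09 (adjusted p = 0.847) and Nr2f2 at 0.05 (adjusted p = 0.924). Over both diets 6 of 6 endothelial markers that passed were higher and 1 called. Of 6 smooth muscle markers 4 were higher and 0 called, and each list had a median of 0.07. On fat 2 of the 6 endothelial markers were higher (median -0.01), and on chow all 6 (median 0.15). An index of clock genes, which follow the hour of the day, averaged 2.23 in ligated fat and 3.03 in ligated chow rats, against 3.21 in sham fat and 2.24 in sham chow rats, and with it as a covariate the difference on fat was -0.69 for Kcnk2 (adjusted p = 0.0208) and -0.71 for Scn4b (adjusted p = 0.109).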

How the data were processed

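Total RNA of left ventricle from 24 rats was labelled with Cy3 and hybridised to a rat bead array of 50-base probes. Per the submitters' processing notes BeadStudio 3 was used. The deposited signals are intensity values, linear and not normalized, and per the file headers each has a detection p-value. The authors also deposited normalized intensity values, by a method that no source used here states; these served as an alternative. Samples were grouped by surgery and diet as the labels state, with 6 animals per group; animal numbers are unique, so nothing pairs animals.

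limma 3.58.1 in R 4.3.3 was used. Its neqc step inferred negative controls from detection p-values to correct background, with an offset of 16, and quantile normalized the log2 values. Probes detected at a detection p under 0.05 in 6 arrays or more were kept (10540 of 22517), and the brightest probe stood for a gene. Names came from the accession for 6330 probes, a current symbol for 4401 and a synonym for 1404 through a RefSeq table of GRCr8; 10185 kept the file's name and 197 had none. The model held 4 group means (20 residual degrees of freedom), and p-values were adjusted by Benjamini-Hochberg over all 10391 genes within each of 7 comparisons. Every adjusted p of a gene comes from limma. The code was tested on simulated data.

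Channel genes were named where called, where an unadjusted p was under 0.01, or where they belong to a list of ventricular channel genes; others, named for an unadjusted p under 0.05 or as family members, were chosen after their values were seen. The members and all lists were chosen with earlier results of these data known. The number of arrays limits the precision. Alternatives covered the offset, normalization, detection filter, variance model, array weights, groups in the fit, batch, clock index, probe collapsing and each animal left out. Cacna1g and 1 other calcium channel gene are not reported here, nor are single-gene results of some other genes, which count in the totals.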

Additional observations from a re-analysis of the deposited data

Results flagged for a closer look

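Each of 35 named channel genes was examined in each of the 4 groups of 6 rats for a rat set apart from the rest of its group by the gap to its neighbour. This was so in 8 of 140 groups, and chance gives about 1 in 20. All values are normalized log2 signals. Ligated fat rat 18 stood above its group for Hcn2 (8.23, the others 7.31 to 7.65) and Kcnj11 (10.21, the others 9.10 to 9.50). Ligated fat rat 37 stood apart for Kcne3 (6.26, the others 5.53 to 5.78); Kcne3 was detected in 1 of 6 ligated fat rats. Ligated chow rat 4 had Kcnd1 at 7.02 (the others 6.40 to 6.59), and ligated chow rat 21 had Kcnip2 at 13.55 (the others 13.09 to 13.16). Sham fat rat 35 had Kcne1 at 7.57, within the range of ligated rats (the other sham fat rats 5.62 to 6.17). Sham chow rat 13 had Kcnd2 at 10.18 (the others 9.21 to 9.45), and sham chow rat 7 had Kcnj5 at 9.58 (the others 8.58 to 8.93). In all 8 cases the rat lay above its group.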

How the results depend on the processing

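Of 592 values of single channel genes under other settings, 553 kept their direction and their side of the threshold, 27 lost the call, 12 gained one and 0 reversed. The 592 include results never called, which cannot lose a call, and refits with 1 rat left out. Without those refits, the call on fat held in 14 of 16 settings for Kcnk2 and 10 of 16 for Scn4b. Over both diets it held in 13 of 15 for Scn3b, 12 of 15 each for Kcnk2, Scn4b and Kcne1, and 11 of 15 for Kcnd1. Median scaling over all probes left 0 channel genes called after ligation on fat, where 2 were called, and 0 over both diets, where 5 were; scaling over detected probes, added after seeing the data, left 2 and 4. Within the high-background arrays 1 was called on fat (Kcnk2) and 0 over both diets, and within the low-background arrays 0 and 1 (Scn3b); each set has 12 arrays, and the low set holds 1 ligated fat rat. On fat the count was 1 (Kcnk2) with the clock index as a covariate, with batch and clock index together, and without ligated fat rats 5 and 25, a setting added after seeing the data. On chow it was 1 (Scn3b) in the authors' normalized intensities, with array weights, and with only the groups compared in the fit, where none was called otherwise. Over both diets array weights gave 7, adding Cacna1h and Kcnd2. With 1 rat left out the count ran from 1 to 4 on fat, from 0 to 1 on chow and from 5 to 6 over both diets. The 4 on fat were Kcnd2, Kcnk2, Scn3b and Scn4b, without ligated fat rat 18. Over all genes, leaving out 1 rat moved the calls from 92 to between 42 and 178 on fat, from 49 to between 24 and 103 on chow, and from 326 to between 253 and 489 over both diets; the other settings gave 4 to 307, 0 to 120 and 12 to 665. No setting called a channel gene for diet or the interaction. The cause of these shifts was not tested. Signals near background limit Kcne1, Kcnd1 and Cacna1h, whose sham rats were partly undetected, and other channel genes such as Clcn1 and Kcnn2. Nothing pairs the animals. No paired analysis was possible because the groups share no animal numbers.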

Other observations

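Among the 54 channel genes, rat 18 was the highest of the 6 ligated fat rats for 14 and the lowest for 10, and rat 37 the highest for 19. Rat 21 was the highest of the ligated chow rats for 20.

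The 5 called channel genes were set beside Nppa across the 12 ligated rats, each value taken as the deviation from its own group's mean, which makes 5 relations chosen after ligation results were known. Scn3b followed Nppa with Pearson's r of 0.83 (permutation p = 0.00032, adjusted over the 5 relations 0.0016) and Spearman's rho of 0.77 (permutation p = 0.00506). Without the 2 rats farthest from the median of Nppa, r was 0.70, and within the 7 high-background arrays of ligated rats r was 0.91; the 5 low-background ones are too few for a value. Kcnd1 had r of 0.56 (permutation p = 0.0437, adjusted 0.109), and its rho was 0.49 (permutation p = 0.109). Kcne1 (r of 0.25), Kcnk2 (-0.29) and Scn4b (-0.27) each had an adjusted permutation p of 0.436. Within the 7 high-background arrays r was 0.75 for Kcnd1, 0.66 for Kcne1, 0.40 for Kcnk2 and 0.12 for Scn4b, so the sign turned for Kcnk2 and Scn4b. These values, and the 0.91 for Scn3b, kept deviations from the means of the full groups. They were not centred anew within the 7 arrays, so differences between the background sets can enter them.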
